A study of Mus musculus with 2 samples.

Results

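The interferon-induced genes of the mouse, with the interferon receptor chains and the Irf and Stat transcription factors, were described in the small intestine and the colon. The set was drawn by name, as all genes on the array whose symbol is Ifi, Ifit, Ifitm, Gbp, Oas, Oasl, Irf, Isg, Irgm, Iigp, Stat, Ifnar or Ifngr followed by a number, together with Igtp, Usp18, Mx1, Mx2, Rsad2, Tgtp1, Tgtp2, Ddx58, Ifih1, Dhx58, Rtp4 and Eif2ak2 where a probe set names that gene alone. This gave 69 member genes with 106 probe sets, of 18193 genes named on the arrays. Total RNA of 1 small intestine biopsy and 1 colon biopsy of wild-type adult mice was measured on 1 Affymetrix Mouse Genome 430 2.0 array each, with no treatment named. How many mice gave each RNA, and their strain and sex, are not given by the labels.

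Type I interferons are secreted when cells sense viral or bacterial nucleic acids, and type I and type II interferons bind separate receptors that signal through Jak kinases. The kinases phosphorylate Stat proteins, which enter the nucleus as dimers that bind GAS elements or, joined with Irf9, as a complex that binds the interferon-stimulated response element (ISRE). The induced genes encode GTPases that attack the vacuoles of intracellular pathogens, proteins that bind or cut viral RNA, and the receptors and factors of the pathway itself. In the intestine a low level of this signalling is maintained by contact with microbes, and epithelial cells as well as leukocytes respond to it.

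Levels are log2 expression values, on which a difference of 1 is a 2-fold difference, and they are compared between tissues for a gene and not between genes. Values of 5 or less were taken as background and raised to 5 before a difference was formed, so where a tissue lay at background the fold is a minimum on this scale, given as at least that value. Calls were made at 3-fold or more. With 1 array per tissue there is no replicate check of any difference, no test was made, and every count is a count past a fixed fold.

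The promoters of 6 members are shown because they hold matches to the elements of the pathway and belong to genes that the comparison turns on. The genes Igtp, Irgm2, Gbp7 and Gbp3 were higher in the small intestine, Irgm1 is a close relative that lay within 3-fold, and Isg20 was the single member called in the colon. Each sequence is the 150 bases before the RefSeq gene start in assembly GRCm38.p6, written 5' to 3' on the strand of the gene. For Isg20 it precedes the first of 3 listed starts. Gbp3 also has a later listed start, whose window holds no match, and the sequence shown precedes the first. Capitals mark matches on either strand to an ISRE-type motif, GAAANNGAAA, or a GAS-type motif, TTCNNNGAA, where N is any base.
Igtp, chr11:58199406-58199555, plus strand: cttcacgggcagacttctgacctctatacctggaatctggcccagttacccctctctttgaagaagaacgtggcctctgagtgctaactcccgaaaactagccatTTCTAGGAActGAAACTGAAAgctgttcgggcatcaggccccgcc
Irgm2, chr11:58214827-58214976, plus strand: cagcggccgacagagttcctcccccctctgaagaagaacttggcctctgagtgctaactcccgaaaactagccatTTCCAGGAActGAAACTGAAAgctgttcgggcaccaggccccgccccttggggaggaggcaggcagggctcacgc
Irgm1, chr11:48871421-48871570, minus strand: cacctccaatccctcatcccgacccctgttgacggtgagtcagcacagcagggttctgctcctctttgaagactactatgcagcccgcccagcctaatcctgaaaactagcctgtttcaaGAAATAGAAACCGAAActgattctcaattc
Gbp7, chr3:142530186-142530335, plus strand: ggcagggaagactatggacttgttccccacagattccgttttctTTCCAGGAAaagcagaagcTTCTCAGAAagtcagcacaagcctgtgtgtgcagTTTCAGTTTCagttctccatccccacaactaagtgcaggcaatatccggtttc
Gbp3, chr3:142559894-142560043, plus strand: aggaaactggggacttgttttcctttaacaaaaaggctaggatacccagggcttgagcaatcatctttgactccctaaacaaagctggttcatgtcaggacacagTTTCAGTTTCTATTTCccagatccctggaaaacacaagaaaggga
Isg20, chr7:78913274-78913423, plus strand: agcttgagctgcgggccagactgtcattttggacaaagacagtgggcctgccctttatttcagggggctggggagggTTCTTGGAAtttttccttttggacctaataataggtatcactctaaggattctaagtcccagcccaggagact

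In Igtp and Irgm2 a GAS-type match was followed by an ISRE-type match, with 2 bases between them, starting at positions -45 and -34 from the gene start in Igtp and at -75 and -64 in Irgm2. The same arrangement was not found in the Irgm1 window, which held overlapping ISRE-type matches only. Over 60 bases around the ISRE-type match, 58 were identical between Igtp and Irgm2, 31 between Igtp and Irgm1 and 30 between Irgm2 and Irgm1. A match is a description of the letters and does not show that a factor binds there.

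Of the 69 members, 52 lay above background on either array, 46 of them on both, 5 in the small intestine only and 1 in the colon only. At 3-fold, 10 members were higher in small intestine and 1 in colon, which is 14.5% and 1.45% of the 69. Among all 18193 named genes 3.46% were called in small intestine and 3.33% in colon, and among the 11015 genes above background these shares were 5.71% and 5.49%. The median floored difference, small intestine minus colon, was 0.28 for the 69 members and 0.00 for all genes. At 2-fold, 22 members (31.9%) were called in the small intestine, and 2 (2.90%) in colon, against 6.95% and 8.14% of all genes. The share of members called was thus above that of all genes in the small intestine and below it in the colon, and neither share carries a test. Markers of some leukocytes were higher in the small intestine as well. Past 3-fold were 7 of 11 for T and NK cells and 4 of 5 for leukocytes in general. For B and plasma cells 3 of 6 were, and none of these lists had a call in the colon. Macrophage and dendritic cell markers, by contrast, had 1 call in each tissue among 11. In bulk tissue, fewer cells of a type and less RNA per cell cannot be told apart, and the part of cell composition in the differences of the members was not tested.

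**Figure D1:**
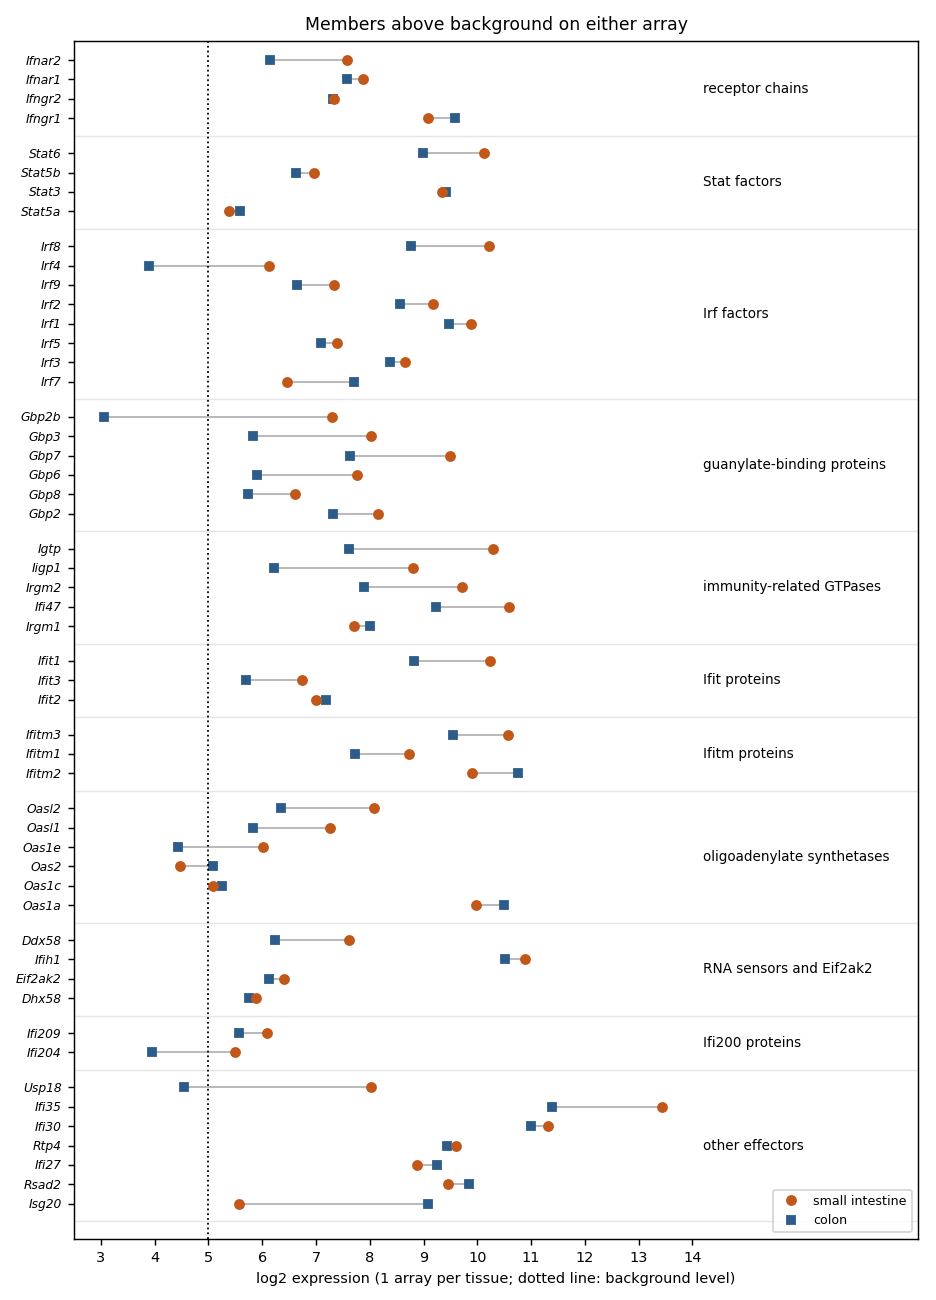
Levels of the 52 members above background, by protein family, on the log2 scale of the deposited values. Circles are the small intestine array and squares the colon array, each a single measurement, and the dotted line is the background level of 5. The guanylate-binding proteins and most immunity-related GTPases lie to the right in the small intestine, and Isg20 lies to the right in the colon.

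The shift was uneven among protein families. The guanylate-binding proteins and immunity-related GTPases, which coat and disrupt the membranes around intracellular bacteria and parasites, made up 11 members, all above background, and 7 of them were higher in small intestine and 0 in colon, with a median difference of 1.86. The other 58 members had 3 calls in small intestine and 1 in colon, with a median difference of 0.01, or 0.33 over the 41 of them above background. The families were set by protein name and the split into GTPases and others was made with the values known, so it is a description.

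Among immunity-related GTPases, Igtp had a level of 10.28 in small intestine and 7.62 in colon, which is 6.33-fold higher in the small intestine. Igtp, also called Irgm3, and Irgm2 are regulatory members of the family that hold the effector GTPases in check on the membranes of the cell. Irgm2 reached 9.72 in small intestine and 7.89 in colon, a 3.56-fold difference. The genes of this pair are neighbours on chromosome 11, with 0 protein-coding genes of the RefSeq table between them. Iigp1, an effector GTPase that inserts into parasite vacuoles, had 8.81 in small intestine and 6.22 in colon, 6.01-fold higher in the small intestine, and its second probe set gave a difference of 2.28. Ifi47, another effector of the family, stayed under 3-fold with 10.59 in small intestine and 9.23 in colon. Irgm1, the third regulatory member, was the exception, with 7.71 in small intestine and 8.01 in colon.

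All 6 guanylate-binding proteins had positive differences, and 4 were called. Gbp2b, named Gbp1 in older annotation, had 7.30 in small intestine and 3.05, below background, in colon, a difference of at least 4.91-fold. Gbp3 followed with 8.02 in small intestine and 5.83 in colon, a 4.56-fold difference. The level of Gbp7 was 9.50 in small intestine and 7.63 in colon, 3.64-fold higher, whereas its other probe set differed by 0.78 only, at 6.98 in small intestine and 6.20 in colon. Gbp6 had 7.77 in small intestine and 5.91 in colon, 3.63-fold higher, and its other probe set, at 6.37 in small intestine and 4.53 in colon, had a floored difference of 1.37. The remaining pair was less than 2-fold apart, Gbp8 with 6.61 in small intestine and 5.73 in colon and Gbp2 with 8.16 in small intestine and 7.31 in colon. Gbp7, Gbp3, Gbp2b and Gbp2 lie next to each other on chromosome 3, and Gbp8 and Gbp6 lie on chromosome 5 with 3 protein-coding genes between them. Proteins of this family are close copies, and the Gbp2 probe set carries the mark _x that Affymetrix gives to sets with probes that also match other sequences, so signal from a relative cannot be set apart there. The Gbp3 set carries the mark _a, for several transcripts of a gene.

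**Figure D2:**
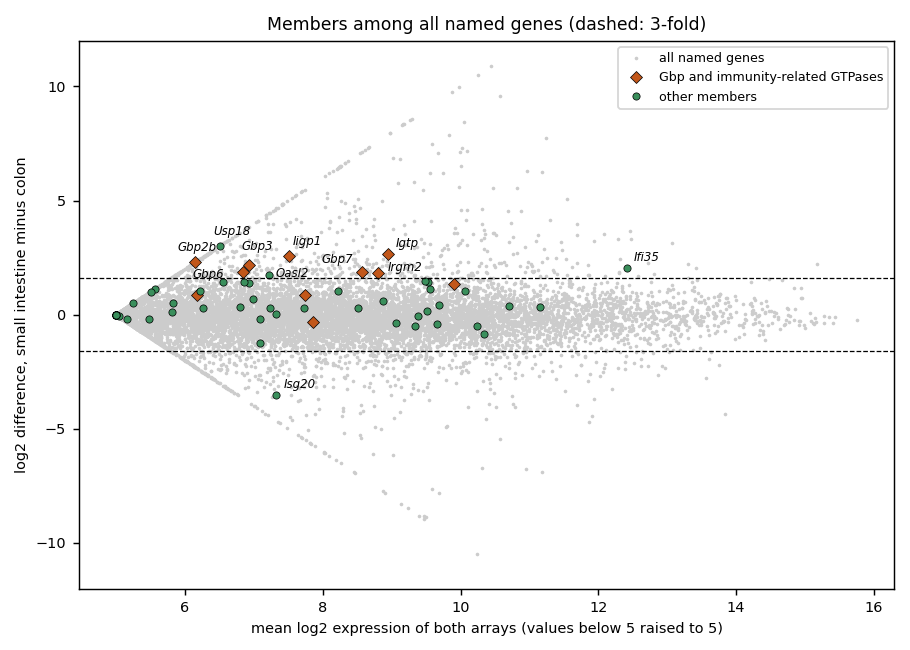
Log2 difference, small intestine minus colon, against the mean level of both arrays for every named gene (grey) and the members (coloured), with values below 5 raised to 5 and dashed lines at 3-fold. The diamonds are the 11 GTPases, of which 7 lie above the upper line, and Isg20 is the single member below the lower line.

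None of the receptor chains or factors that carry the signal was called in either tissue. The type I receptor chain Ifnar2 had 7.57 in small intestine and 6.15 in colon, a 2.68-fold difference, while its partner Ifnar1 had 7.88 in small intestine and 7.58 in colon. For the receptor of interferon gamma, Ifngr1 had 9.08 in small intestine and 9.59 in colon, and Ifngr2 7.34 in small intestine and 7.31 in colon. Of the 3 probe sets of Ifnar2, the brightest had this difference of 1.42. The others were below background in the colon, with 6.43 in small intestine and 4.53 in colon and with 5.18 in small intestine and 3.90 in colon. Their floored differences of 1.43 and 0.18 are therefore minimums and do not show that the sets disagreed.

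Of 6 Stat factors, 4 were above background and none was called. Stat6, which transmits interleukin-4 and interleukin-13, was the widest apart, with 10.12 in small intestine and 9.0 in colon (2.18-fold), although its second probe set differed by 0.27. Stat3, the factor of the interleukin-6 and interleukin-10 families, was nearly level with 9.35 in small intestine and 9.42 in colon. The growth hormone and interleukin-2 factors were close as well, Stat5b with 6.96 in small intestine and 6.63 in colon and Stat5a with 5.39 in small intestine and 5.58 in colon. Stat2, the partner of Irf9 in the type I response, and Stat4, the interleukin-12 factor, were at background on both arrays.

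All 8 Irf factors were above background on either array, 7 with a positive and 1 with a negative difference, and none passed 3-fold. Irf8, a factor of dendritic cells, macrophages and B cells, had 10.22 in small intestine and 8.76 in colon, 2.74-fold higher in the small intestine, and its second probe set differed by 1.51. Irf4, needed for plasma cells and activated lymphocytes, had 6.12 in small intestine and 3.89, below background, in colon, hence at least 2.18-fold higher. Markers of B and plasma cells, a source of both factors, were higher for 3 of 6 genes in the small intestine. Those of macrophages and dendritic cells had 1 call in each tissue among 11. The part of these cells in the differences of Irf8 and Irf4 was not tested. The opposite direction to Irf8 and Irf4 was seen for Irf7, the factor that amplifies type I interferon production. Its levels were 6.47 in small intestine and 7.71 in colon, a difference of -1.24 or 2.36-fold. Irf9, the DNA-binding subunit of the type I complex, had 7.34 in small intestine and 6.64 in colon. Irf1, an activator of interferon gamma targets, had 9.88 in small intestine and 9.48 in colon, and its antagonist Irf2 had 9.18 in small intestine and 8.57 in colon. Irf5, which acts downstream of Toll-like receptors, had 7.39 in small intestine and 7.09 in colon. Irf3, the factor activated first by nucleic acid sensing, had 8.65 in small intestine and 8.37 in colon by a set marked _x. Its probe sets disagreed in sign, with differences from -0.78 to 0.79.

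The antiviral effectors that act on RNA were mixed. The Ifit proteins bind the 5' ends of foreign RNA, and Ifit1 had 10.24 in small intestine and 8.83 in colon (2.66-fold). Ifit3 had 6.75 in small intestine and 5.69 in colon (2.08-fold), and Ifit2 7.0 in small intestine and 7.18 in colon, and the sign of Ifit2 turned to 0.06 with centring on hybridization spike-ins. The genes of the family lie near each other on chromosome 19. Oligoadenylate synthetases make the second messenger that activates RNase L, and the synthetase-like Oasl2 was the single one called, with 8.07 in small intestine and 6.36 in colon (3.29-fold). Its neighbour Oasl1 had 7.26 in small intestine and 5.83 in colon (2.68-fold). Oas1e had 6.01 in small intestine and 4.43, below background, in colon, at least 2.02-fold apart. Oas1a differed in the other direction, with 9.98 in small intestine and 10.49 in colon, and Oas1c and Oas2 were near background. In Oas2 the small intestine level was 4.47 and the colon level 5.08, and in Oas1c they were 5.08 in small intestine and 5.25 in colon. Of 10 synthetases and synthetase-like genes, 6 were above background, 3 with a positive and 3 with a negative difference, of which Oas1c turned to 0.07 with centring on hybridization spike-ins.

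Among cytosolic RNA sensors, Ddx58, which encodes RIG-I, had 7.62 in small intestine and 6.23 in colon (2.62-fold), but a second probe set differed by 0.21. Ifih1, which encodes MDA5, had 10.89 in small intestine and 10.52 in colon. Dhx58, which encodes the regulator LGP2, had 5.88 in small intestine and 5.75 in colon, and Eif2ak2, the kinase PKR that stops translation, had 6.41 in small intestine and 6.13 in colon. None of these 4 genes was called.

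The Ifitm proteins hinder the fusion of viruses with endosomes. Ifitm3 had 10.57 in small intestine and 9.55 in colon (2.03-fold), and Ifitm1 8.74 in small intestine and 7.72 in colon (2.02-fold). Ifitm2, adjacent to Ifitm1 on chromosome 7, had 9.90 in small intestine and 10.77 in colon, a difference of -0.86. These neighbours thus differed in opposite directions while all were within 3-fold. Of the Ifi200 proteins, a mouse family that includes sensors of DNA, Ifi209 and Ifi204 were above background by probe sets naming a single gene, with 6.09 in small intestine and 5.58 in colon for Ifi209 and 5.50 in small intestine and 3.95 in colon for Ifi204. Other sets of the family name several genes. Of those that name Ifi203 beside other genes, 1 had 6.78 in small intestine and 5.71 in colon and another had 5.81 in small intestine and 4.23 in colon.

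Usp18 encodes the protease that removes Isg15 from proteins and blocks signalling at Ifnar2. The Usp18 level was 8.02 in small intestine and 4.55, below background, in colon, hence a difference of at least 8.13-fold. Ifi35, which binds the interferon-induced protein Nmi, had 13.44 in small intestine and 11.39 in colon (4.13-fold). All 3 probe sets of Ifi35 passed 3-fold, the others with differences of 2.57 and 2.03. By contrast Isg20, an exonuclease that degrades single-stranded RNA, had 5.56 in small intestine and 9.09 in colon and was 11.5-fold higher in the colon. Isg20 rests on a single probe set, marked _a. All 7 exocrine pancreas markers were higher in the colon too, with Prss2 at 5.68 in small intestine and 11.78 in colon and the other 6 below background in the small intestine and from 9.96 to 13.95 in the colon. Their part in the Isg20 difference was not tested. The other effectors above background were less than 2-fold apart. Rtp4, a chaperone of receptors, had 9.60 in small intestine and 9.44 in colon, Ifi27 8.88 in small intestine and 9.26 in colon, and Rsad2, the antiviral enzyme viperin, 9.45 in small intestine and 9.85 in colon. Ifi30, a lysosomal reductase of antigen processing, had 11.32 in small intestine and 10.99 in colon.

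The members nearest to the threshold were Oasl2, Irgm2 and Gbp6 inside it, at 3.29-fold, 3.56-fold and 3.63-fold, and Irf8, Oasl1 and Ifnar2 outside it, at 2.74-fold, 2.68-fold and 2.68-fold. At background on both arrays, by probe sets naming a single gene, were 17 members, namely Ifi202b, Ifi203, Ifi207, Ifi213, Ifitm5, Ifitm6, Ifitm7, Ifitm10, Stat2, Stat4, Oas1b, Oas1f, Oas1h, Oas3, Ifi44l, Mx1 and Mx2. For these genes no difference was measured, which does not show that they were not expressed. Mx1 and Mx2, dynamin-like GTPases against viruses, had 4.05 and 3.78 in the small intestine and 4.86 and 3.73 in the colon.

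The only technical spread that the arrays hold for a gene is that between its own probe sets. Of 18 members with at least 2 probe sets above background, 14 had differences of 1 sign and 4 had both signs, namely Eif2ak2, Irf3, Rsad2 and Stat3. The floored differences of the probe sets of Ddx58, Gbp7, Ifnar2 and Irf3 spanned more than 1 on the log2 scale. For Ifnar2 this span rests on colon values raised to the floor. Pooled over genes, the SD of differences among such sets, above background on both arrays, was 0.45 over 12 members and 0.54 over 3533 genes. This spread is technical, and the spread between animals was not measured, since each tissue was sampled once. Of the 11 called members, 7 have a single probe set.

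**Figure D3:**
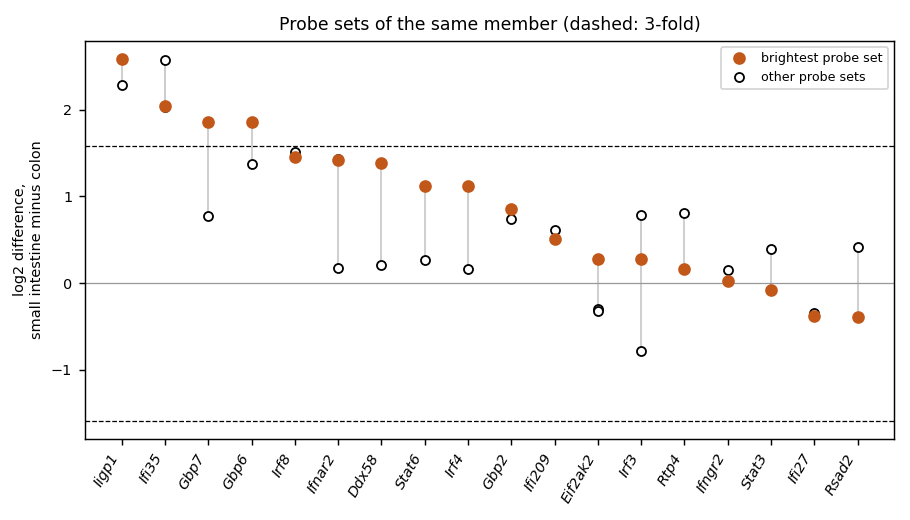
Log2 difference, small intestine minus colon, of each probe set above background for the 18 members with at least 2 of them. Filled circles are the brightest probe set, which stands for the gene, open circles are the others, and dashed lines mark 3-fold. The sets of Iigp1 and Ifi35 all lie above the upper line, whereas those of Gbp7 and Gbp6 fall on both sides of it. Values below 5 were raised to 5, so the open circle of Gbp6, below background in the colon, is a minimum.

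Of the 69 members, 56 had a promoter window in the RefSeq table, 69 windows in all, each from 250 bases before to 50 bases after a gene start. An ISRE-type match was present in 24 of the windows (34.8%), against 3.44% of 32851 windows of all genes. GAS-type matches stood in 16 windows (23.2%), against 8.30% of all, and both in 7 (10.1%), against 0.454% of all. An ISRE-type and a GAS-type match overlapped in the Ifitm3 window. By call, an ISRE-type match was found in 5 of the 7 members higher in the small intestine that have a window, in 13 of the 34 within 3-fold and in 6 of the 14 at background on both arrays. A GAS-type match was found in 4 of the 7, in 9 of the 34 and in 2 of the 14. Isg20 had a GAS-type match and no ISRE-type match in its windows. Genes at background on both arrays, such as Oas3 and Ifi207, were among those with an ISRE-type match. Close copies such as Igtp and Irgm2 are not separate observations of a motif.

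**Figure D4:**
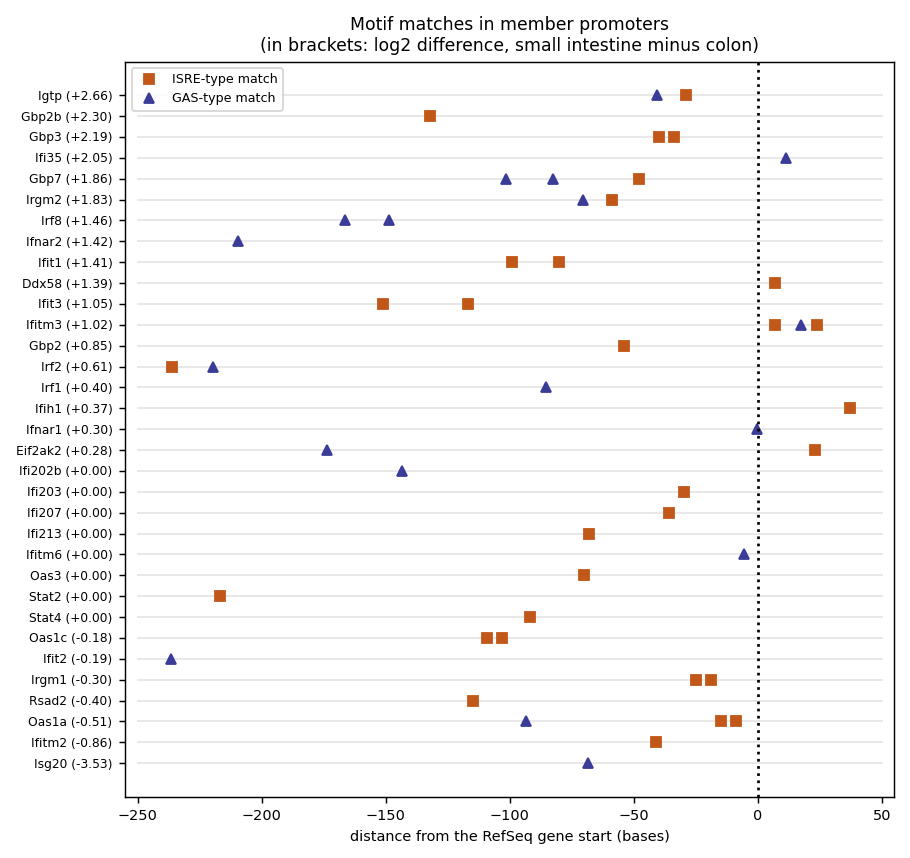
Positions of ISRE-type (squares) and GAS-type (triangles) matches in the 33 members with a match, in bases from the RefSeq gene start (dotted line), ordered by the log2 difference in brackets, small intestine minus colon. Most matches lie within 150 bases before the start, in members higher in the small intestine, in members within 3-fold and in members at background.

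Beyond the named set, 88 further gene symbols of the interferon pathway were looked up in 5 lists, and 79 were measured, 68 of them above background. The 88 include older symbols of genes also listed under their current symbol, Tmem173 for Sting1 and Mb21d1 for Cgas. Of the 79, 17 were higher in small intestine and 1 in colon, beside the 3.46% and 3.33% of all genes, and their median difference was 0.55. All 6 measured ligands, Ifnb1, Ifng, Ifnz, Ifna1, Ifna2 and Ifna4, were at background on both arrays, with values from 2.15 to 4.02 in the small intestine and from 2.13 to 3.59 in the colon. None of the 5 further receptor chains and kinases, Ifnlr1, Il10rb, Jak1, Jak2 and Tyk2, was called. Among 6 negative regulators only Socs3, a feedback inhibitor of Jak kinases, was called, with 9.99 in small intestine and 7.83 in colon (4.47-fold).

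In the list of other interferon-induced genes, 14 of 44 were higher in small intestine and 0 in colon. Several serve the presentation of peptides on MHC class I. The immunoproteasome subunit Psmb8 had 11.22 in small intestine and 8.31 in colon (7.55-fold), Psmb9 had 10.11 in small intestine and 7.76 in colon, and Psmb10 had 11.27 in small intestine and 8.95 in colon (4.99-fold). The peptide transporter Tap1 had 8.35 in small intestine and 5.75 in colon (6.05-fold). Nlrc5, which activates class I genes, had 6.94 in small intestine and 4.75, below background, in colon, at least 3.84-fold. B2m, the light chain of class I, stayed under 3-fold with 14.09 in small intestine and 12.65 in colon. The chemokines Cxcl9 and Cxcl10, which attract T cells, were at background in the colon, and their small intestine levels were higher by at least 14.1-fold and at least 3.60-fold. Ube2l6, the conjugating enzyme of Isg15, had 7.47 in small intestine and 4.70 in colon, at least 5.53-fold. Lap3, an aminopeptidase, was 15.5-fold and Ido1, which degrades tryptophan, 11.2-fold higher in the small intestine. Ifi27l2b, Slfn2, Cmpk2 and Parp14 were 4.27-fold, 3.84-fold, 3.74-fold and 3.72-fold higher.

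Among 18 genes of nucleic acid sensing, Mavs, the mitochondrial adaptor of RIG-I and MDA5, had 11.41 in small intestine and 9.17 in colon (4.73-fold). Tkfc, whose protein phosphorylates dihydroxyacetone and glyceraldehyde in fructose metabolism and also binds MDA5, had 8.37 in small intestine and 4.74 in colon, at least 10.3-fold higher. Aim2, a sensor of double-stranded DNA that forms an inflammasome, had 5.41 in small intestine and 7.63 in colon and was the single pathway gene called in the colon, at 4.67-fold. No other gene of this list was called.

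**Figure D5:**
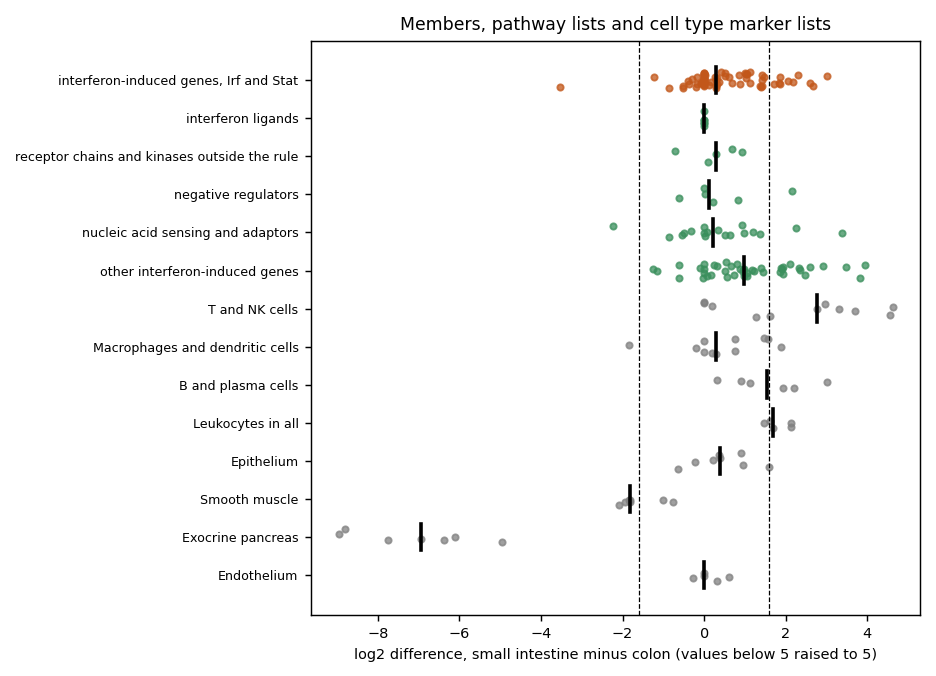
Log2 difference, small intestine minus colon, of the 69 members (top row), of the measured genes in the 5 pathway lists and of 8 lists of cell type markers. Points are genes, black bars are medians and dashed lines mark 3-fold. Markers of T and NK cells and of leukocytes in general lie mostly to the right, and those of smooth muscle and exocrine pancreas to the left.

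Markers of cell types differed between the biopsies as well. Of 11 measured T and NK cell markers, 7 were higher in small intestine and 0 in colon, and the log2 of their summed linear levels was 13.37 in small intestine and 9.32 in colon. Gzmb had 10.13 in small intestine and 6.42 in colon, and Cd3g had 8.31 in small intestine and 5.34 in colon, whereas Cd8b1 and Il2rb were at background on both arrays. Of 5 general leukocyte markers 4 were higher in the small intestine, with sums of 12.57 in small intestine and 10.77 in colon, and of 6 B and plasma cell markers 3 were, with sums of 14.33 in small intestine and 13.37 in colon. Macrophage and dendritic cell markers had 1 call in each tissue among 11, with sums of 12.88 in small intestine and 12.28 in colon, and Itgam and Fcgr1 were at background on both arrays. Epithelial markers had sums of 16.88 in small intestine and 16.48 in colon. In the colon, 5 of 7 smooth muscle markers were higher, with sums of 13.01 in small intestine and 14.44 in colon, beside the exocrine pancreas markers. Of 5 endothelial markers none was called, and Pecam1 and Tie1 were at background on both arrays.

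Both labelled tissues carried their own genes, with Lct at 13.34 in small intestine and 3.05 in colon and Car1 at 2.86 in small intestine and 15.49 in colon. Median levels were 3.99 on the small intestine array and 4.01 on the colon array, with 10417 and 10411 genes above background. The 8 probe sets for the 5' ends of poly-A spike-ins differed by -2.02 on average and those for the 3' ends by 0.28, and the Gapdh 5' set differed by -1.27, at 9.31 in small intestine and 10.58 in colon, against 0.02 for its 3' set. The Actb 5' set did not follow, with a difference of 0.0037 at 8.7222 in small intestine and 8.7185 in colon. The 5' signal of the poly-A and Gapdh controls was thus lower on the small intestine array, and its part in the differences of the members was not tested.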

How the data were processed

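Levels came from a table of normalized expression values per probe set that the authors deposited on the log2 scale. GCRMA is named in the submitters' processing notes, with no version, while RMA stands in the study's methods, which point to another deposited series. GCRMA corrects for probe base composition and can widen a fold against a dim value, and whether the methods' distal colon and jejunum of C57B6 mice hold for these arrays is not known. The 45101 values per array ran from 0.73 to 16.97 and were used without further scaling. The table holds 0 columns of other samples and no comparisons by the authors.

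Probe sets were named through the platform annotation, and 34945 named 1 gene. Those naming several genes, 932, were left out of the set. A gene was represented by its brightest probe set over both arrays, which gave 18193 genes. Of the 69 members, 17 were represented by a set marked _x, _s or _a. All 69 member symbols equal those of the RefSeq table of GRCm38.p6. Promoter windows, 250 bases before to 50 after a start, came from RefSeq for that build.

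Members, families, pathway lists and markers were chosen with earlier results of these data known. All members are accounted for, and both levels are given for members past 3-fold, among the 10 highest on either array, or above background in a receptor, Stat, Irf or effector family. Probe sets are given where their differences lay over 1 apart.

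Differences are floored log2 values, small intestine minus colon, with a floor of 5 and a threshold of 3-fold. No test could be made on 1 array a tissue, and precision is limited by the number of arrays. The difference and call steps were tested on simulated data. Changes were planted only in genes well above the floor in the colon, so the floor itself was little tested. Alternatives were floors of 4 and 6 and none, folds of 2 and 5, quantile normalization, centring (by the median, by hybridization spike-ins), the median over probe sets, and leaving out probe sets marked _x, _s or _a. For all genes and for the pathway lists these were added after seeing the data. Python 3.11.15, numpy 2.4.6, pandas 2.3.3 and matplotlib 3.10.9 were used. Sequencing data of the same study were not used here.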

Additional observations from a re-analysis of the deposited data

Results flagged for a closer look

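Probe sets that name several genes at once stand outside the named set and showed differences among interferon-induced genes. A probe set shared by Isg15 and Gm9706 had 10.01 in small intestine and 6.96 in colon, a log2 difference of 3.05. Isg15 is the ubiquitin-like protein that Usp18 removes from its targets. A probe set shared by Tgtp2 and Tgtp1, a pair of immunity-related GTPases, had 10.02 in small intestine and 7.23 in colon, a difference of 2.80. A probe set shared by Ifi211 and Ifi205 of the Ifi200 family had 8.89 in small intestine and 6.90 in colon, a difference of 1.99. These 3 were picked out because they lay above the background level of 5 and the genes they name have no place in the comparison. Shared probe sets that also name a member were not picked out. Those above background are Oas1e with Oas1d (0.48), sets naming Ifi203 (1.08 and 0.81) and a set naming Ifi204 with 3 other genes (2.32). Which gene of each pair gave the signal was not tested.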

How the results depend on the processing

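No result changed direction past the threshold under any alternative run. Of 10 members higher in the small intestine at 3-fold, the count was 22 at 2-fold, 3 at 5-fold and 16 with centring on hybridization spike-ins, and from 8 to 12 under the others. The colon count of 1 became 2 at 2-fold and 0 without shared probe sets, since Isg20 has no other probe set. Spike-in centring moved the median difference of all genes, formed without the floor, to 0.26, against 0.01, and split all genes at 837 in small intestine and 446 in colon, against 629 and 605. Among all genes, 1265 were higher in small intestine and 1481 in colon at 2-fold, and 309 and 260 at 5-fold. Of the pathway genes, 8 were higher in the small intestine at 5-fold, and in the colon 3 at 2-fold and 0 at 5-fold. Gbp2b lost its call at a floor of 6 (1.30) and Gbp7 with the median over probe sets (1.32). Among members not called in any of these settings, the sign turned with the median over probe sets for Eif2ak2 (-0.30), Rsad2 (0.41), Stat3 (0.26) and Irf3 (-0.03), without shared probe sets for Irf3 (-0.78), and with spike-in centring for Stat3 (0.17), Ifit2 (0.06), Stat5a (0.06) and Oas1c (0.07). Gbp3 and Oasl2 have no set left without shared probe sets. Irf4 gained a call at a floor of 4 (2.12) and with no floor (2.24), and Ifitm6, below background on both arrays, gained one with no floor (1.69). Ifit1, Irf8, Ddx58, Ifi47, Oasl1 and Ifnar2 gained a call with spike-in centring. The median difference of the members lay between 0.09 and 0.53. Members near background have no measurable difference. No paired analysis was possible because each tissue has 1 array.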

Other observations

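Ifit1bl1 and Ifit1bl2, relatives of Ifit1 whose symbols fall outside the naming rule, were looked up after their values were seen. Ifit1bl2 had 12.10 in small intestine and 9.42 in colon, a 6.38-fold difference, while its second probe set was below background at 4.14 in small intestine and 4.45 in colon. Ifit1bl1 had 11.88 in small intestine and 12.21 in colon. A probe set shared by Mndal, Ifi211, Ifi205 and Ifi204 had 8.21 in small intestine and 5.90 in colon, a difference of 2.32. The probe set that names Ifi204 alone had a floored difference of 0.50.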
